A study of Canis lupus familiaris with 13 samples.

Results

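The receptors of interleukin-13 and interleukin-4 (IL13RA2, IL13RA1 and IL4R), the cytokine IL6 with its receptor chains (IL6R and IL6ST), the related chains LIFR and OSMR, and the transcription factors STAT6 and STAT3 were described in 13 soft tissue sarcomas of dogs. These 10 genes were read by 17 of the 43035 probe sets of an Affymetrix canine array, a probe set being a group of short probes for 1 transcript. They are 10 of the 15115 genes that the array's annotation names, taken by symbol with all their probe sets, and the list was selected on the log2 differences between the tumour groups, which were known when it was drawn up. All values of the members in that contrast are therefore given as a description, with errors and no p-value, and a count of members past a threshold is printed only beside the share of all probe sets. RNA came from biopsies of untreated primary tumours, malignant growths of connective tissue, 5 of them metastatic and 8 non-metastatic, the latter without metastasis over a follow-up of at least a year. The labels give no breed, age, sarcoma subtype or grade, and name no dog as the source of any tumour, so every p-value below measures only the spread between these samples.

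As background, interleukin-13 binds IL13RA1, which pairs with IL4R to form the receptor shared by interleukin-4 and interleukin-13 on non-blood cells, and this receptor signals mainly through STAT6. IL13RA2 binds interleukin-13 tightly but has a short cytoplasmic tail, and it is known as a decoy receptor. Interleukin-6 binds IL6R, and the complex recruits IL6ST (gp130), the signalling chain shared by most of the family. IL6ST pairs with LIFR for leukaemia inhibitory factor and with OSMR or LIFR for oncostatin M, and the activated chains signal mainly through STAT3. Receptors of both families are made by fibroblasts and other connective tissue cells as well as by leukocytes.

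All values are log2 intensities, so a difference of 1 is a doubling, and differences are metastatic minus non-metastatic with the standard error (SE) of a limma fit over 42924 probe sets. Bacterial spike-in transcripts, added to RNA before labelling, gave an even signal along the transcript in 9 samples, the 5 metastatic samples and non-metastatic replicates 5 to 8. They gave no signal in non-metastatic replicates 1, 3 and 4, and in replicate 2 the 3′ end exceeded the 5′ end by 3.54, against at most 0.96 elsewhere. The labels name no batch, so comparisons were repeated within the 9 samples with even signal. Without their target the spike-in probe sets read between 2.63 and 7.16, and a value not above 7.16 is not told apart from that range, so a difference resting on such values has no exact size. The mesenchymal markers averaged 11.36 to 12.17 in metastatic and 11.39 to 12.28 in non-metastatic tumours, and the epithelial markers 3.91 to 5.12 and 4.49 to 6.12, with 0 of 4 of them above 7.16 on average and 0 at 0 in every sample.

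IL13RA2, the decoy receptor, was low in every metastatic tumour, at 5.56, 6.18, 5.17, 5.08 and 5.88 in replicates 1 to 5. In the non-metastatic tumours it ran from 6.55 through a median of 9.36 to 11.84. The groups did not overlap, and the nearest non-metastatic value, that of replicate 2, lay 0.37 above the highest metastatic one. The means were 5.57 ± 0.47 (SD, n = 5) and 9.41 ± 1.56 (SD, n = 8), a difference of -3.83 ± 0.65 (SE). Within the 9 samples with even spike-in signal the difference was -4.05 ± 0.41 (SE), with the 4 non-metastatic values between 8.78 and 10.91. All 5 metastatic values lay within the range of probe sets without target, so the difference is not exact in size, and among the non-metastatic samples only replicate 2 lay there as well. In tumour biopsies fewer cells of a type and less RNA per cell cannot be told apart, here or in any result below.

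IL6ST, the shared signalling chain of the interleukin-6 family, showed the same separation on a smaller scale. It read 5.82, 6.04, 5.93, 5.55 and 5.79 in the metastatic tumours and 6.24, 7.42 and 7.84 as the lowest, median and highest values of the non-metastatic ones. No values overlapped, and the lowest non-metastatic value was again that of replicate 2, 0.20 above the highest metastatic value. The means of 5.83 ± 0.18 (SD, n = 5) and 7.28 ± 0.53 (SD, n = 8) differed by -1.45 ± 0.23 (SE), and by -1.59 ± 0.19 (SE) within the samples with even spike-in signal. The metastatic values and 3 of the 8 non-metastatic values were not above 7.16. IL13RA2 and IL6ST are each read by 1 probe set.

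**Figure D1:**
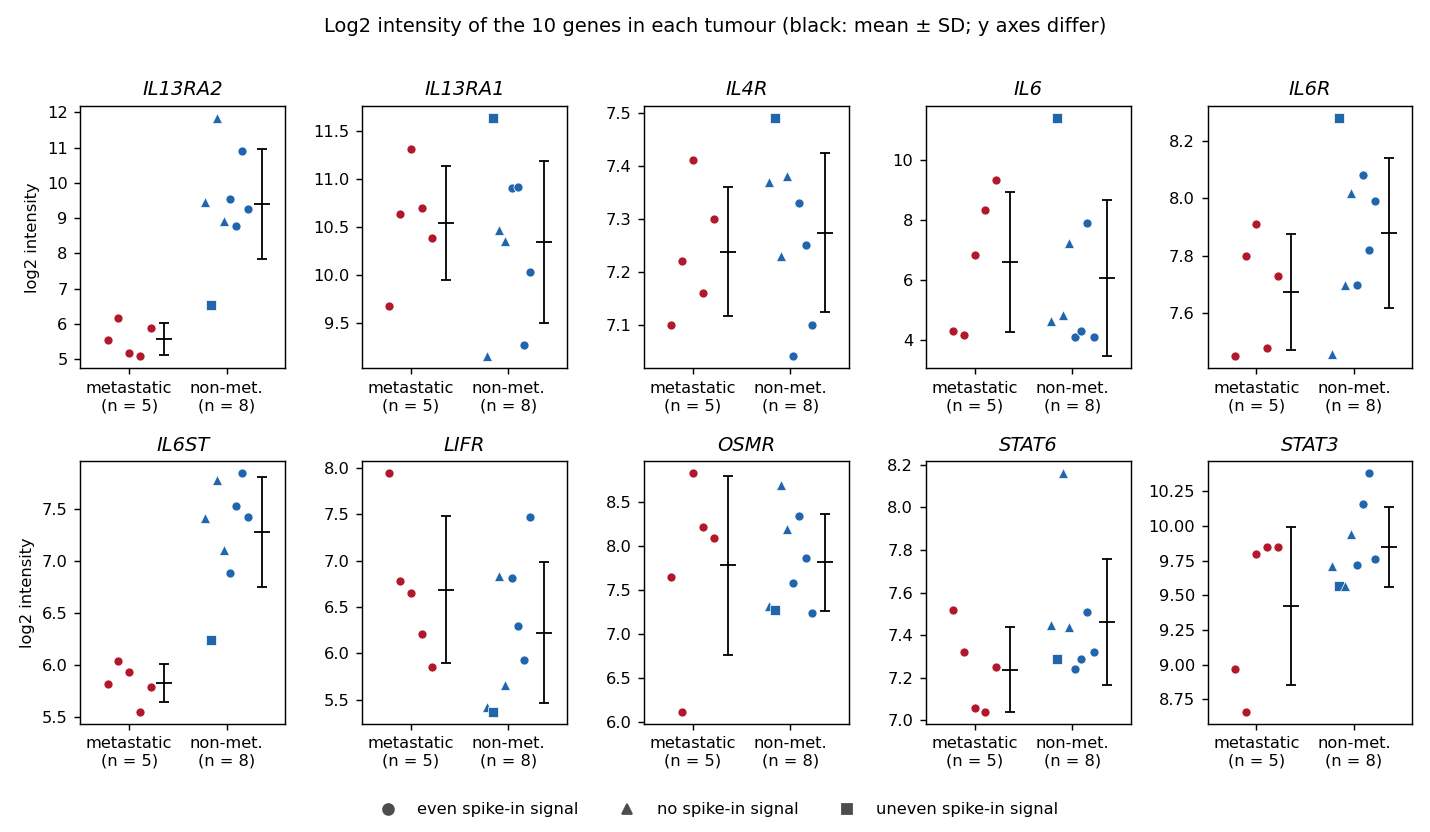
Log2 intensity of each gene at its probe set of highest mean (y axis, a scale of its own in each panel) in the metastatic (red, n = 5) and non-metastatic (blue, n = 8) tumours, with mean and SD in black and symbols for the spike-in signal. IL13RA2 and IL6ST are the 2 genes whose groups do not overlap, with the sample of uneven signal (square) the lowest non-metastatic value in both, and IL6 has the widest spread.

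These were the 2 of 10 genes past the limma threshold (adjusted p under 0.05), both lower, where 4.90% of all probe sets passed in either direction and 3.34% as lower. They were also the 2 of 10 whose groups did not overlap, with 1.45% of all probe sets wholly lower and 1.18% wholly higher in metastatic tumours. Since the genes were chosen with this contrast known, nothing is read from either count. The count was also 2 within the samples with even spike-in signal, where 2.78% of probe sets passed (0.578% as higher and 2.20% as lower), and in each of the 9 fits that left out 1 of those samples. It was 0 without non-metastatic replicates 1, 3 and 4, where replicate 2 joins the samples with even signal. In that fit 207 of the 42924 probe sets passed, with IL13RA2 at -3.44 and IL6ST at -1.36. Over the 10 genes the median difference was -0.12, against 0.05 over all probe sets tested.

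The signalling receptor of interleukin-13 showed no such separation. IL13RA1 read 9.68, 10.64, 11.32, 10.70 and 10.39 in the metastatic tumours and ran from 9.15 through 10.41 to 11.64 in the non-metastatic ones. The ranges overlapped almost wholly, and the difference was 0.20 ± 0.39 (SE), with a 95% interval from -0.64 to 1.04. Its other 2 probe sets differed by 0.25 ± 0.25 and 0.12 ± 0.29 (SE). The 3 probe sets followed each other across the samples, with Pearson correlations of 0.724 to 0.921 after the group means were subtracted (13 samples, as for all correlations of this kind below). IL13RA1 and IL13RA2 lie on the same chromosome, with 13 protein-coding genes between them in the RefSeq table of assembly UU_Cfam_GSD_1.0.

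IL4R, the chain that IL13RA1 pairs with, was the least variable of the members. It read 7.10, 7.22, 7.41, 7.16 and 7.30 in the metastatic tumours and 7.04 to 7.49 in the non-metastatic ones, with a median of 7.29. The difference was -0.04 ± 0.11 (SE), and its 95% interval, -0.27 to 0.20, was the narrowest of the 10 genes. Of its 13 values 4 were not above 7.16, and the other 9 lay between 7.22 and 7.49, just above that limit. STAT6, the factor downstream of this receptor, read 7.52, 7.32, 7.06, 7.04 and 7.25 in the metastatic tumours, and 7.24, 7.38 and 8.16 as the lowest, median and highest non-metastatic values. The ranges overlapped, the highest value being that of non-metastatic replicate 3, and the difference was -0.22 ± 0.16 (SE, 95% interval -0.56 to 0.11).

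IL6, the cytokine itself, varied more between tumours than nearly any other transcript. Its metastatic values were 4.30, 4.16, 6.84, 8.34 and 9.33, and its non-metastatic values ran from 4.10 through a median of 4.73 to 11.41. Tumours of both groups were thus near the low end and well above it, with the highest value of all in non-metastatic replicate 2. Non-metastatic replicates 7 and 4 read 7.91 and 7.23. Of the 13 IL6 values 8 (3 metastatic and 5 non-metastatic) were not above 7.16, so its difference has no exact size. Its SD within groups was 2.51, and 14 of the 42924 probe sets had a larger one. The difference of 0.53 ± 1.26 (SE) had a 95% interval from -2.18 to 3.24, so a change of several doublings either way was not detectable with 13 arrays. It was 1.29 without non-metastatic replicate 2 and -0.15 without metastatic replicate 5.

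The ligand-binding chain IL6R gave small differences of opposite sign at its 2 probe sets. The chosen one read 7.45, 7.80, 7.91, 7.48 and 7.73 in the metastatic tumours and 7.46, 7.91 and 8.28 as the lowest, median and highest non-metastatic values, a difference of -0.21 ± 0.15 (SE). The other averaged higher in metastatic tumours, at 7.46 ± 0.19 (SD, n = 5) against 7.12 ± 0.23 (SD, n = 8), a difference of 0.34 ± 0.14 (SE). Of its 8 non-metastatic values 4 were not above 7.16, so this difference has no exact size. Within the samples with even spike-in signal the 2 probe sets differed by -0.22 ± 0.13 and 0.19 ± 0.12 (SE). Their group-centred correlation was 0.334, below that of any pair of probe sets of IL13RA1, LIFR or STAT3, and which of them reads the full-length receptor is not given by the annotation.

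The partner chains LIFR and OSMR, which are neighbours in the RefSeq table with 0 protein-coding genes between them, did not separate the groups. LIFR read 7.94, 6.78, 6.65, 6.21 and 5.85 in the metastatic tumours and 5.37, 6.12 and 7.47 as the lowest, median and highest non-metastatic values. Of its 13 values 11 were not above 7.16, as were 12 of 13 at its other probe set, so its difference has no exact size. The ranges overlapped, the difference was 0.46 ± 0.40 (SE), and it was 0.06 ± 0.44 (SE) within the samples with even spike-in signal. Its other probe set, which correlated with the first at 0.950 (group-centred), differed by 0.12 ± 0.28 (SE). OSMR read 7.65, 6.11, 8.83, 8.22 and 8.09 in the metastatic tumours, so metastatic replicates 2 and 3 held both its lowest and its highest value of all 13 samples. Its non-metastatic values ran from 7.24 to 8.70, and the difference was -0.03 ± 0.39 (SE, 95% interval -0.87 to 0.80).

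STAT3, the main factor downstream of IL6ST, read 8.97, 8.66, 9.80, 9.85 and 9.85 in the metastatic tumours. Its non-metastatic values were 9.57 at the lowest, 9.74 at the median and 10.38 at the highest. Metastatic replicates 1 and 2 lay below every non-metastatic sample and the other metastatic samples lay inside the non-metastatic range. The difference was -0.43 ± 0.22 (SE, 95% interval -0.90 to 0.05), and its other 3 probe sets differed by -0.56 ± 0.33, -0.50 ± 0.20 and -0.31 ± 0.22 (SE). Their 95% intervals were -1.27 to 0.14, -0.93 to -0.08 and -0.78 to 0.17. The 4 probe sets correlated at 0.707 to 0.959 (group-centred). With metastatic replicate 2 left out the difference was -0.23.

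**Figure D2:**
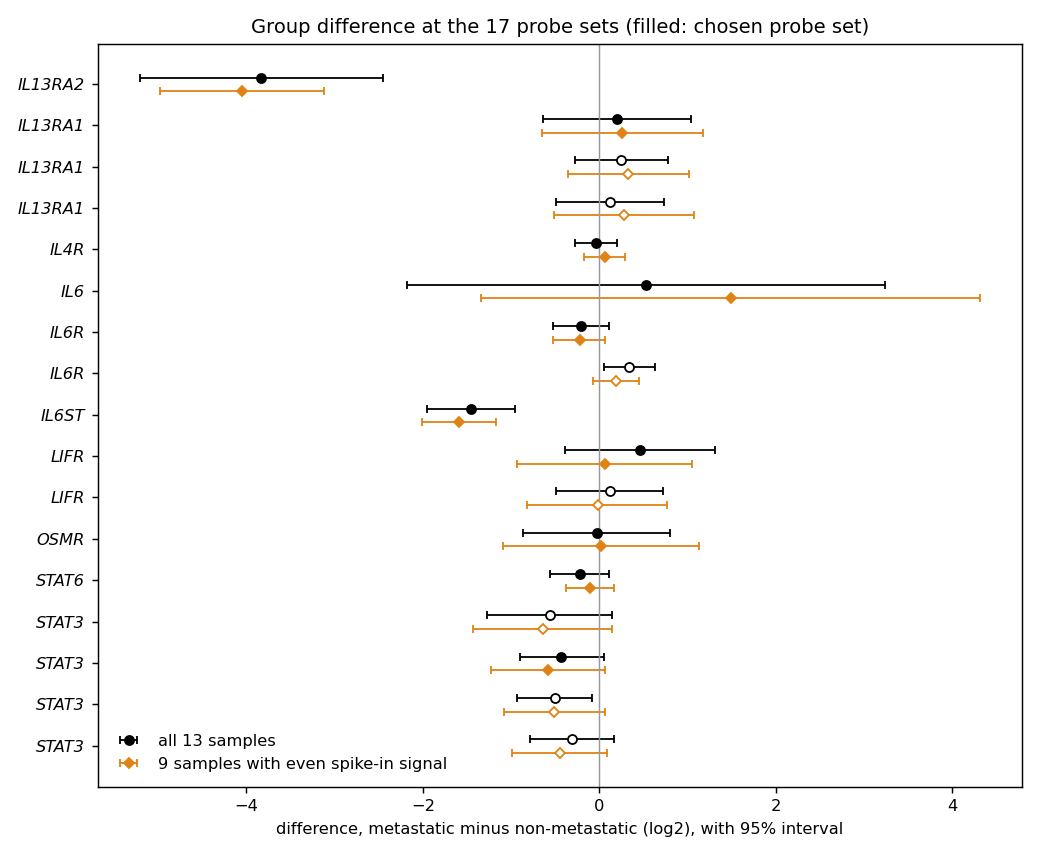
Difference between metastatic and non-metastatic tumours (x axis, log2) at each of the 17 probe sets with its 95% interval, over all 13 samples (black) and within the 9 samples with even spike-in signal (orange), the chosen probe set of each gene filled. IL13RA2 (interval -5.21 to -2.45 over all samples) and IL6ST (-1.95 to -0.95) have the lowest differences, and the interval of IL6 is the widest. The genes were chosen on this contrast, which the intervals do not allow for.

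Among the non-metastatic tumours alone, a contrast that the choice of genes did not use, the members were compared between the 3 samples without spike-in signal and the 4 with even signal. IL13RA2 averaged 10.07 ± 1.56 (SD, n = 3) and 9.62 ± 0.91 (SD, n = 4), a difference of 0.44 ± 0.75 (SE), and IL6ST averaged 7.43 ± 0.34 and 7.42 ± 0.40 (SD), a difference of 0.01 ± 0.25 (SE). With limma, 0 of 10 genes passed the threshold at their chosen probe sets, where 21.7% of all probe sets passed (5.85% as higher and 15.8% as lower). At an unadjusted p under 0.05 the count was also 0 of 10, against 16003 of the 42924 probe sets. The second probe set of IL6R was lower without spike-in signal, by -0.41 ± 0.11 (SE, limma adjusted p = 0.0381), and it is the probe set whose difference between the tumour groups was positive. The largest of the other differences was that of LIFR, -0.66 ± 0.44 (SE, limma adjusted p = 0.315).

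IL13RA2 and IL6ST were positively correlated inside the non-metastatic group, less so without replicate 2. Their Pearson correlation was 0.853 over the 8 non-metastatic tumours and 0.648 over the 7 without replicate 2, the sample of uneven spike-in signal, which was lowest for both. Non-metastatic replicates 3 and 7 were highest for both, IL13RA2 at 11.84 and 10.91 and IL6ST at 7.78 and 7.84. Of all pairs of the members, IL13RA2 and IL6ST had the highest correlation after the group means were subtracted (0.839). Its size is therefore that of a maximum over many pairs, and a background over all probe sets is not given for it. The correlations are descriptions, since the paired values come from the same arrays and share their RNA quality. ACTB control probe sets at the 3′ end exceeded those at the 5′ end, a gap that widens as RNA degrades, by 3.14 in non-metastatic replicate 2 and by 0.39 to 2.87 in the other samples. The part of this gap in the pairing was not tested.

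**Figure D3:**
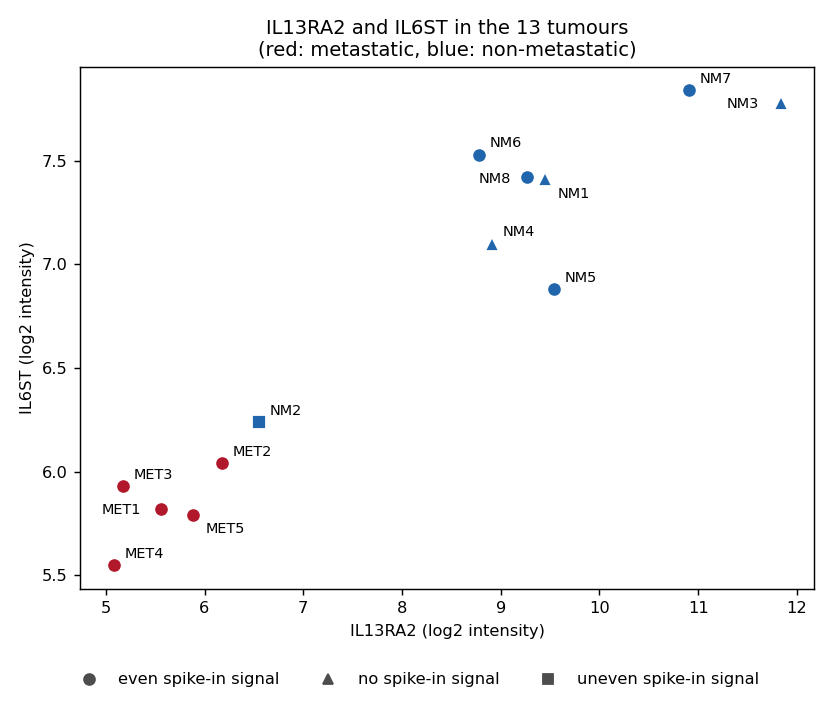
IL13RA2 (x axis) against IL6ST (y axis), both as log2 intensity, in each metastatic (red) and non-metastatic (blue) tumour, with symbols for the spike-in signal. The 5 metastatic tumours lie at the lower left, non-metastatic replicate 2 beside them, and the other 7 non-metastatic tumours at IL13RA2 values of 8.78 to 11.84.

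The genes whose pattern over all 13 samples was most like that of IL13RA2 were TMEM143, PDLIM2, HOOK2, ENTPD2 and RETSAT, with Pearson correlations of 0.976, 0.969, 0.966, 0.954 and 0.954. Likeness was searched over all probe sets, so PDLIM2, HOOK2, RETSAT, GNPDA2, METTL2A and YTHDF3 are given here at a probe set other than that of their highest mean. All 5 were lower in metastatic tumours, so much of each correlation is the group difference itself. Over the 8 non-metastatic tumours alone their correlations with IL13RA2 were 0.928, 0.954, 0.902, 0.862 and 0.865. Those 8 are among the 13 samples by which the genes were picked, so these values are no separate support. Replicate 2, the sample of uneven spike-in signal and lowest for IL13RA2, was also the lowest non-metastatic sample for all 5. ENTPD2 read 4.92 there, against at least 7.75 in the other non-metastatic tumours. These correlations were not computed without replicate 2. After the group means were subtracted the most alike were SLC30A9 (0.921), TMEM143 (0.920), GNPDA2 (0.919), METTL2A (0.911) and YTHDF3 (0.906), of which TMEM143 is in both sets. The other 4 differed between the groups by 0.46, -0.38, 0.01 and -0.38, and none of these passed (limma adjusted p from 0.229 to 0.973). For these 4, too, replicate 2 was the lowest non-metastatic sample.

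The other genes of these pathways were taken from 4 lists that held none of the members, 81 measured genes in all. Of these, 3 rose and 4 fell in metastatic tumours (limma adjusted p under 0.05), where 4.90% of all probe sets passed. After quantile normalization 4 rose and 2 fell. The fits without 1 sample gave 1 to 9, with 1 gene left without metastatic replicate 1 or non-metastatic replicate 3 or 4 and 9 without non-metastatic replicate 2. Within the samples with even spike-in signal 1 rose and 2 fell. The median difference of the 81 genes was 0.02, close to the 0.05 of all probe sets.

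Among the ligands, shared chains and STAT6-induced genes of the interleukin-4 and interleukin-13 pathway, 1 of 24 fell and 0 rose, and the list had a median difference of -0.09. IRS1, an adaptor that the interleukin-4 receptor uses beside STAT6, fell by 0.63 ± 0.16 (SE, limma adjusted p = 0.0374), and none of the 13 values of this probe set was above 7.16. Its call was lost in 10 of the 13 fits without 1 sample, and within the samples with even spike-in signal (-0.63, adjusted p = 0.0504). The other IRS1 probe set, with 12 of 13 values not above 7.16, did not pass over all samples (-1.10, limma adjusted p = 0.135) and did within those with even signal (-1.25, adjusted p = 0.0466). The cytokines themselves were not above 7.16 in any sample, IL4 at means of 6.43 in metastatic and 6.27 in non-metastatic tumours and IL13 at 5.24 and 5.31, with differences of 0.17 and -0.08 that did not pass (limma adjusted p = 0.702 and 0.758). POSTN, a matrix protein that interleukin-13 induces in fibroblasts, averaged 11.57 and 11.65 and did not pass (adjusted p = 0.903).

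In the list of other interleukin-6 family ligands and receptors, 1 of 12 genes fell and 0 rose, with a median difference of 0.05. IL11RA, the receptor that recruits IL6ST for interleukin-11, fell by 1.46 ± 0.37 (SE, limma adjusted p = 0.0399). It read 6.37 to 8.37 in the metastatic and 7.47 to 9.51 in the non-metastatic tumours, so the ranges overlapped. Of its 5 metastatic values 4 were not above 7.16. It did not pass within the samples with even spike-in signal, where the difference was -1.44 (limma adjusted p = 0.108), and its call was lost after quantile normalization and in 9 of the 13 fits without 1 sample. The ligands IL11, LIF and OSM differed by 0.07, -0.09 and 0.45 without passing (adjusted p = 0.756, 0.651 and 0.152).

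Of the 26 measured kinases, other STATs and inhibitors of the pathway, 2 rose and 1 fell, and the median difference was 0.23. SOCS5, a suppressor of cytokine signalling that binds the interleukin-4 receptor, averaged 10.51 ± 0.30 (SD, n = 5) in metastatic and 9.43 ± 0.26 (SD, n = 8) in non-metastatic tumours, and this rise of 1.08 ± 0.16 (SE) passed (limma adjusted p = 0.00367). Every metastatic value (10.20 to 10.88) was above every non-metastatic one (9.12 to 9.81), and its other probe set rose by 0.99 (adjusted p = 0.00495). It kept its call in all 13 fits without 1 sample, and within the samples with even spike-in signal it rose by 1.08 (adjusted p = 0.0183). There its call was lost when non-metastatic replicate 5, 6 or 8 was left out (adjusted p up to 0.0763).

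SOCS2, which restrains growth hormone signalling, rose by 0.94 ± 0.23 (SE, limma adjusted p = 0.0349), with 8 of its 13 values not above 7.16. It did not pass within the samples with even spike-in signal (0.81, adjusted p = 0.162), and 10 of the 13 fits without 1 sample did not call it. STAT4, the factor of interleukin-12 signalling in lymphocytes, fell by 1.49 ± 0.35 (SE, adjusted p = 0.0274), by 1.42 within the samples with even spike-in signal (adjusted p = 0.0402), and also at its other probe set (adjusted p = 0.0256). Of its 5 metastatic values 4 were not above 7.16, as were all 5 at the other probe set, so these differences have no exact size. Its call was lost in 7 of the 13 fits without 1 sample, and in 7 of 9 such fits within the samples with even spike-in signal. The T and NK cell markers averaged 6.77 to 7.45 over the metastatic and 6.64 to 7.26 over the non-metastatic tumours, 0 of the 8 passed (1 at an unadjusted p under 0.05) and 0 were at 0 in every sample, and their part in the STAT4 difference was not tested. The kinases JAK1, JAK2 and TYK2 and the feedback inhibitor SOCS3 differed by -0.75, 0.40, 0.15 and 0.35 without passing (limma adjusted p = 0.274, 0.338, 0.481 and 0.249).

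Of the 19 measured STAT3-induced genes, 1 rose and 1 fell, with a median difference of -0.22. BIRC5, the apoptosis inhibitor survivin, which is also a gene of dividing cells, rose by 1.31 ± 0.30 (SE, limma adjusted p = 0.027), and CCND1, a cyclin of the G1 phase, fell by 0.96 ± 0.26 (SE, adjusted p = 0.0476). Neither passed within the samples with even spike-in signal, at 1.37 (adjusted p = 0.106) and -0.71 (adjusted p = 0.19). Of the 13 fits without 1 sample, 5 did not call BIRC5 and 9 did not call CCND1, whose call was also lost after quantile normalization.

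**Figure D4:**
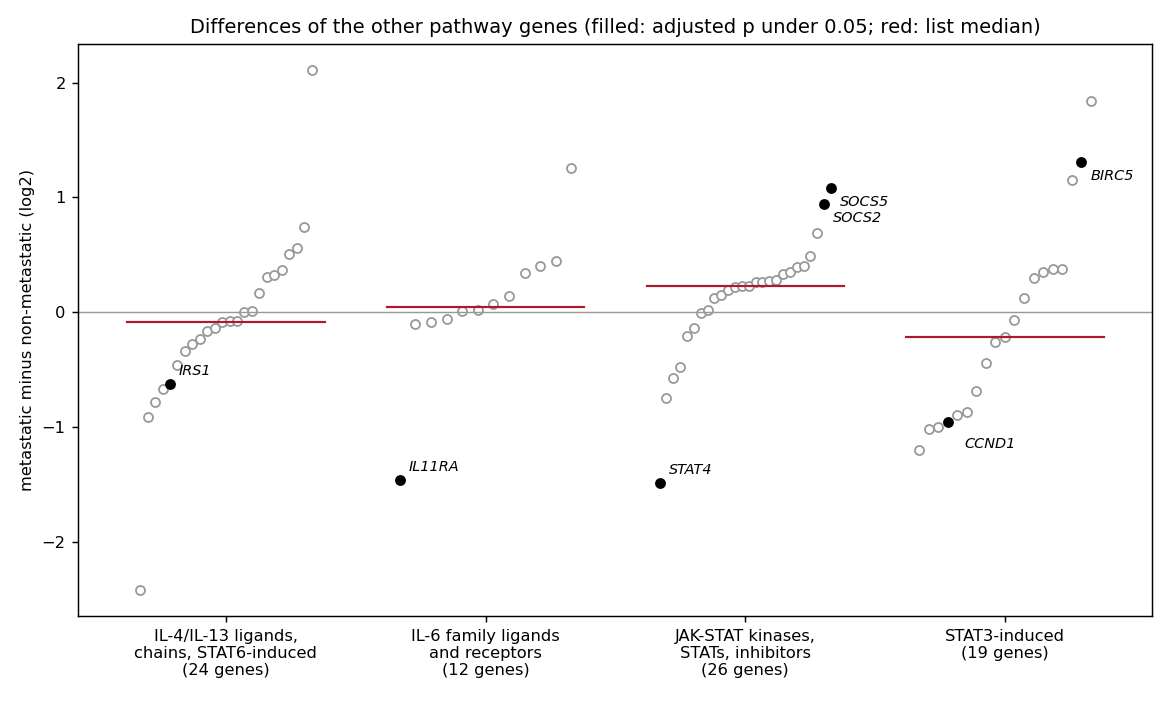
Difference between metastatic and non-metastatic tumours (y axis, log2) for each measured gene of the 4 pathway lists, in order of size within a list, with genes of limma adjusted p under 0.05 filled and named and the list median in red. The medians lie between -0.22 and 0.23, and 7 of the 81 genes are filled.

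Markers of cell types that a biopsy can hold were counted in the same way, where 4.90% of all probe sets passed and 3.34% as lower. Of the mesenchymal markers 2 of 9 fell (DCN by 1.28 and THY1 by 1.41, limma adjusted p = 0.00429 and 0.0425) and 0 rose. Of the epithelial markers 1 of 4 fell (KRT8, with 11 of 13 values not above 7.16). Within the samples with even spike-in signal DCN passed (adjusted p = 0.0346), and THY1 and KRT8 did not (adjusted p = 0.133 and 0.0719). With limma 0 of 8 macrophage, 0 of 3 B cell, 0 of 4 mast cell, 0 of 6 endothelial, 0 of 4 skeletal muscle and 0 of 4 adipocyte markers passed, with 0, 1, 0, 0, 1 and 0 at an unadjusted p under 0.05. The part of these cells in the IL13RA2 and IL6ST differences was not tested.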

How the data were processed

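Per the labels' protocols, total RNA was purified on silica columns and labelled with biotin by a 1-cycle 3′ reaction. The authors deposited 1 table for the 13 arrays, read here as log2 intensities because its values run from 0 to 14.33 with sample medians of 6.71 to 6.94. Its software, background correction and normalization were not given in the sources used here. Detection calls were not used here. Values were used as deposited, the 105 zeros included. Gene names came from the platform annotation (1 symbol for 29264 probe sets, several for 439, which were left unnamed, and none for 13332). All 10 members matched RefSeq by gene ID, and no coordinates are given because the array annotation names no genome build.

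Groups came from the sample titles. The 42924 probe sets other than Affymetrix controls were fitted in R 4.3.3 by lmFit and eBayes of limma 3.58.1, group as the only term, two-sided, Benjamini-Hochberg over all of them, and the fit was tested on simulated data. Each gene is described at its probe set of highest mean, except those named for likeness to IL13RA2, which was searched over all probe sets. An even spike-in signal means a 3′ average above 6 and a 3′ minus 5′ value below 2. The number of arrays limits the precision.

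The members and lists were chosen with earlier results of these data known. Named genes are the members, up to 6 passing genes of each pathway list and the 5 most like IL13RA2 by either correlation. Others were chosen after their values were seen. Alternatives were quantile normalization, a filter on low means, an intensity trend, zeros as missing, spike-in signal as restriction or block, an ACTB covariate, a replicate block, another probe set and each sample left out. Python 3.11.15 with numpy 2.4.6, pandas 2.3.3, scipy 1.17.1 and matplotlib 3.10.9 did the rest.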

Additional observations from a re-analysis of the deposited data

Results flagged for a closer look

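STAT6 in non-metastatic replicate 3 read 8.16, and the next non-metastatic value was 7.51. That gap was 0.707 of the range of the group, above the critical value of 0.526 for 8 samples. It was 1 of 34 groups of values tested this way over the 17 probe sets, and chance gives about 1 in 20. The same tumour had the highest IL13RA2 value of all 13 samples (11.84).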

How the results depend on the processing

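The differences of IL13RA2 (-4.05 to -3.38), IL6ST (-1.59 to -1.26), STAT6 (-0.28 to -0.09), STAT3 (-0.58 to -0.26), IL6 (0.15 to 1.49) and LIFR (0.06 to 0.67) kept their sign under all alternatives that used the 13 samples or a fixed subset of them, and in the 13 fits without 1 sample except IL6. Those of IL13RA1 (-0.03 to 0.39), IL4R (-0.06 to 0.06) and OSMR (-0.03 to 0.20) changed sign, as did IL6R at its other probe set (0.34). The fits without 1 sample gave 2 to 2 of the 10 genes past the threshold, 1 to 9 of the 81 pathway genes and 856 to 4478 probe sets, the lowest without metastatic replicate 1 (with 1 pathway gene also without non-metastatic replicate 3 or 4) and the highest without non-metastatic replicate 2. In the non-metastatic contrast they gave 0 to 0 of the 10 genes.

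Among probe sets with a mean at or above the median, 1 of the 7 members left passed, because IL6ST, IL6 and LIFR were not tested there. Of the 21466 probe sets in that fit, 1951 passed. Within the samples with even spike-in signal 1192 probe sets and 3 pathway genes passed, and leaving out non-metastatic replicate 8 there left 259 probe sets. With the spike-in signal as a block 4 pathway genes passed. With the ACTB covariate 1367 probe sets and 2 pathway genes passed. Without the 3 samples that had no spike-in signal, an alternative chosen after seeing the data, 207 probe sets, 0 members and 2 pathway genes passed, IL13RA2 at -3.44 and IL6ST at -1.36. That fit adds non-metastatic replicate 2 to the samples with even signal, which alone gave 2 members. Apart from the members left out by the filter on low means, the cause of these changes was not tested. The labels give the replicate numbers no meaning, and the deviations of same-numbered samples from their group means correlated at -0.00857 to 0.0782. Differently numbered samples were not compared in this way, so these values do not decide whether the numbers mark pairs. With a replicate block, which uses non-metastatic replicates 6 to 8 for no difference, 733 probe sets, 0 members and 2 pathway genes passed. Quantile normalization, the intensity trend and zeros as missing left each total within 1.5 times its value, but quantile normalization changed the pathway genes from 3 higher and 4 lower to 4 higher and 2 lower.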

Other observations

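IL6 and STAT3 were set beside the STAT3-induced list sample by sample. After the group means were subtracted, 16 of the 19 measured genes of that list correlated positively with IL6 over the 13 samples, with a median of 0.349 and a range from -0.385 (PIM1) to 0.796 (ZFP36, an mRNA-decay factor), against a median of 0.0992 and 60.2% positive over all probe sets. No test of that difference was run, and 8 of the 13 IL6 values were not above 7.16. With STAT3 itself 16 of 19 were also positive, with a median of 0.415 and the highest value at MCL1 (0.707), a survival protein, against a median of 0.00613 and 50.7% positive over all probe sets. For the interleukin-4 and interleukin-13 list the median correlation was -0.212 with IL13RA2 and -0.0633 with STAT6, against -0.147 and -0.105 over all probe sets. These are descriptions over samples that share arrays and RNA quality.

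ADAM10, a protease that sheds IL6R, read 9.57 to 12.33 in metastatic and 8.50 to 9.55 in non-metastatic tumours, without overlap and without passing (1.26 ± 0.38, SE, limma adjusted p = 0.0723). Of all probe sets 1.18% were wholly higher in this way. Its other probe set overlapped, at 6.82 to 10.50 and 6.42 to 7.41 (1.21, limma adjusted p = 0.142), with 8 of 13 values not above 7.16. IL33, an alarmin that triggers type 2 cytokines, averaged 7.92 ± 2.46 (SD, n = 5) and 10.34 ± 0.68 (SD, n = 8) and did not pass (limma adjusted p = 0.0934). FGL2, an immune regulator listed with the STAT3-induced genes, did not pass over all samples (-1.20, adjusted p = 0.0962) and fell within those with even spike-in signal (-1.78, adjusted p = 0.0203). These 3 genes were chosen after their values were seen.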
